A study of Homo sapiens with 4 samples.

Results

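The genes of the mitochondrial ribosomal proteins are described here by the MYC and H3K27ac peaks that lie at them in HAP1 cells. Members are the protein-coding genes of GENCODE release 44, lifted to the human genome build hg19 (GRCh37), whose symbols start with MRPL or MRPS followed by a digit, together with DAP3. The rule found 79 of 20162 protein-coding genes. Subunits are given throughout by symbol alone, as 49 MRPL genes (large subunit) and 30 MRPS genes including DAP3 (small subunit). A symbol may differ from the place of the protein, as for MRPS36 below. A member was counted with a mark when a peak shared at least 1 bp with the gene body or the 2 kb upstream of its 5′ end. Distances were taken from the transcription start site (TSS) of the canonical transcript, and positive distances are downstream.

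The study used ChIP-seq of wild-type HAP1, a line that derives from KBM-7, a chronic myelogenous leukemia line. It comprised 4 samples with 1 library each, which are MYC, input DNA as its control, H3K27ac, and normal rabbit IgG as the control of H3K27ac. The authors called peaks over these controls, and the lists hold 1723 MYC peaks and 87087 H3K27ac peaks. There are no replicates, so that no difference was tested, and the lists carry no read depth. The paper reports fewer unique mapped reads for MYC than for any other library. It states that these data served to check the MYC and H3K27ac signals and not for quantitative analysis. Fold enrichment is the ratio of signal to control at the summit of a peak, and −log10 q is the authors' measure of its significance. A site that fell short of the calling threshold is not in the lists. Shares are given with exact Clopper-Pearson 95% intervals, which cover counting error only. Of 10 blood markers set to check the line, 3 had an H3K27ac peak within 1 kb of the TSS. These were TAL1 with a fold enrichment of 14.6, SPI1 with 5.00 and KIT with 4.62, whereas PTPRC, CD34, GATA1, RUNX1, CD33, MPO and ITGAM had none. The paper describes HAP1 as an adherent line in which hematopoietic markers are no longer expressed.

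The mitochondrial ribosome makes the few proteins that are encoded in mitochondrial DNA, which are core subunits of the respiratory chain and ATP synthase. Its RNAs come from the mitochondrial genome, but all of its proteins are encoded in the nucleus and imported, so that promoters of many unlinked nuclear genes supply a single particle. MYC with its partner MAX binds the E-box CACGTG, and H3K27ac marks active promoters and enhancers.

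All members carried H3K27ac. A peak overlapped the gene body or the 2 kb upstream in 79 of 79 members (100%, interval 95.4 to 100%), compared with 75.6% of all protein-coding genes. Within 1 kb of the TSS the mark was also found in 79 of 79, compared with 65.4% of all protein-coding genes. Large and small subunit genes were therefore alike in having an acetylated promoter, at 49 of 49 and 30 of 30.

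The level of the mark was close to that of other acetylated promoters. The strongest peak within 1 kb of the TSS had a median fold enrichment of 17.0 over the members, and 17.7 over all protein-coding genes with such a peak. The median was 18.4 for the large subunit and 16.9 for the small subunit. Of the 79 members, 51 lay between the quartiles of all acetylated promoters (11.8 and 24.1), 13 below and 15 above. The quartiles of the members themselves were 12.9 and 22.0, which lie inside those of all acetylated promoters. When the strongest peak was taken from the whole gene and the 2 kb upstream, the median was 18.4 for members, 17.6 for all genes with a peak and 18.8 for the genes with H3K27ac at the TSS.

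**Figure D1:**
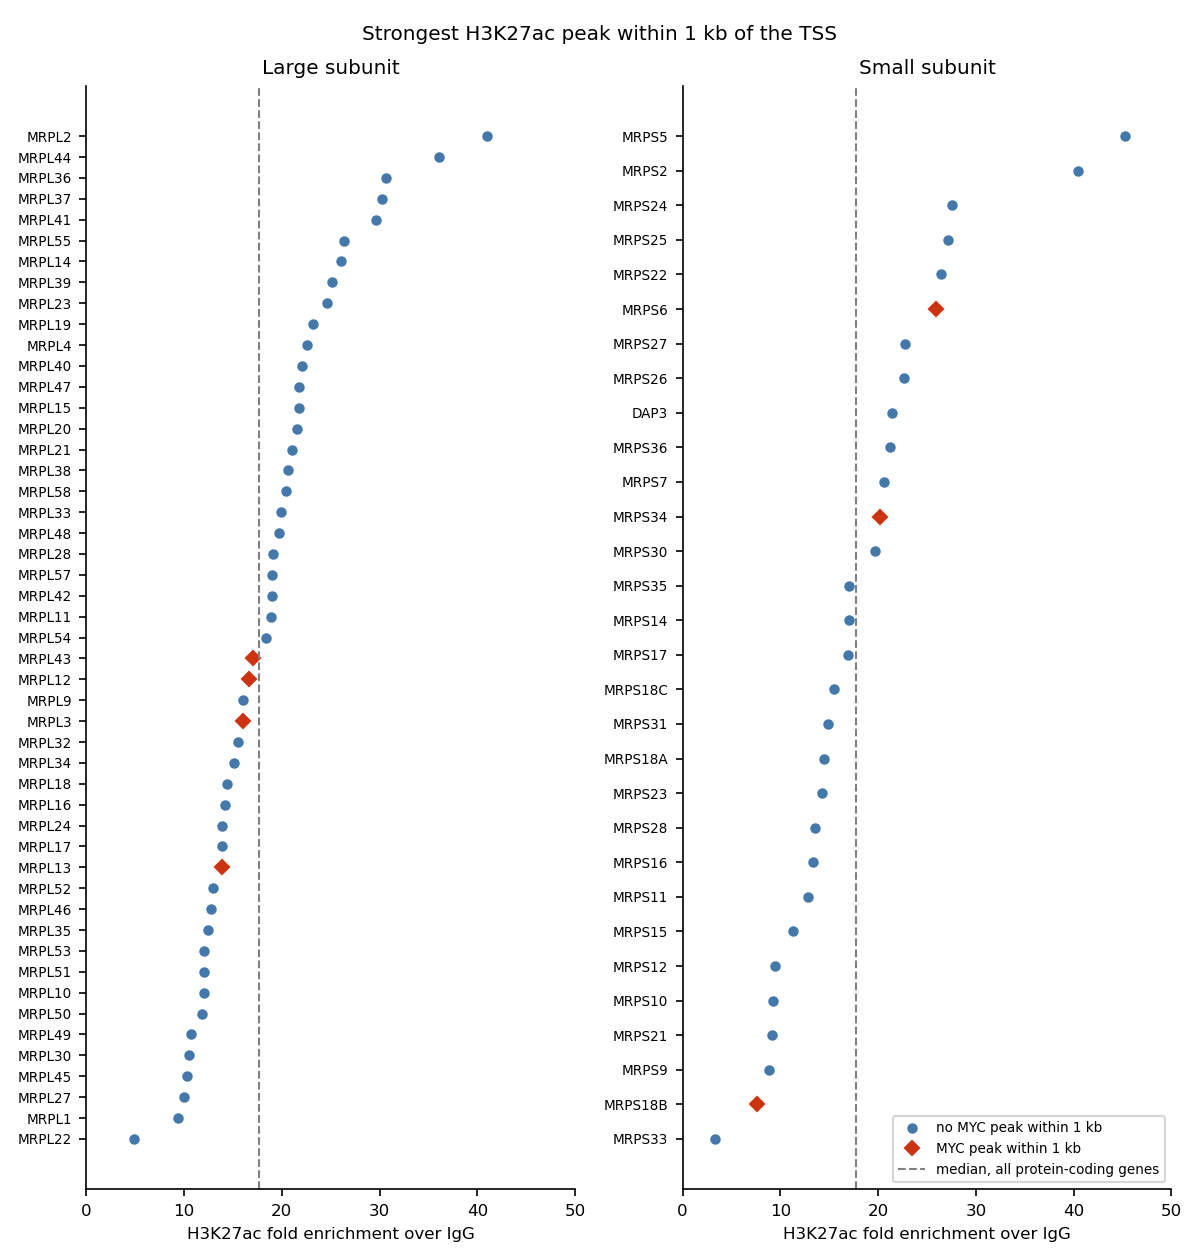
Fold enrichment of the strongest H3K27ac peak within 1 kb of the TSS for the 49 large and 30 small subunit genes (1 library). Subunits are given by symbol. Red diamonds are members that have a MYC peak within 1 kb. The dashed line is the median of all protein-coding genes with a peak (17.7). Values range from 3.33 for MRPS33 to 45.3 for MRPS5, and the 7 members with MYC are spread between 7.64 and 25.9.

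**Figure D2:**
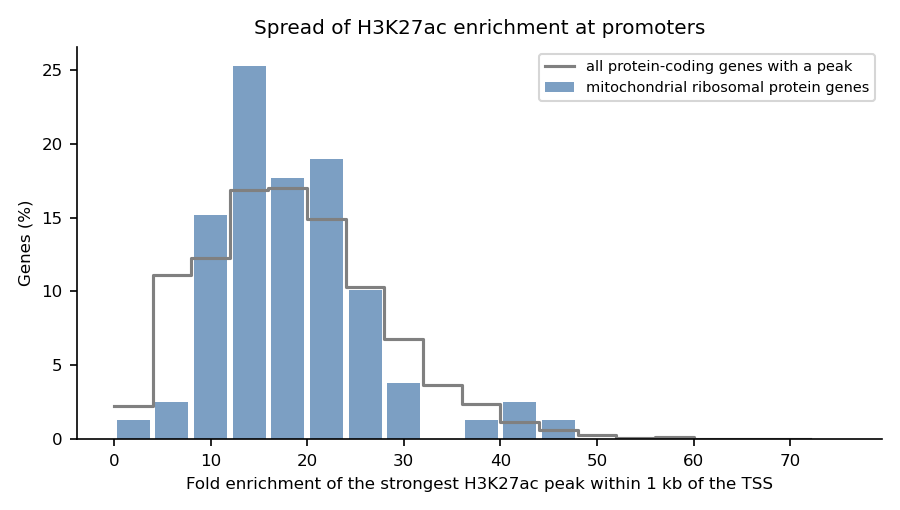
Percentage of genes in bins of 4 units of fold enrichment of the strongest H3K27ac peak within 1 kb of the TSS, for the 79 members (bars) and for all 13182 protein-coding genes with such a peak (line). The bin from 12 to 16 holds 25.3% of the members and 16.9% of all genes, and the bin from 4 to 8 holds 2.53% and 11.1%.

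The 5 members with the highest values came from both subunits. MRPS5, the counterpart of bacterial S5, had the highest fold enrichment at 45.3, in a peak of 928 bp that covered its TSS. MRPL2, the counterpart of bacterial L2, followed among promoters at 41.0, and this promoter is divergent with KLC4, a kinesin light chain gene whose TSS is 197 bp away. MRPS2, the counterpart of bacterial S2, had 40.5 and MRPL44, a protein with a fold like that of RNase III enzymes, had 36.1.

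MRPL11 also ranked among these 5 by the gene-wide rule, with a value of 43.6. Its peak lies 28198 bp upstream of the canonical TSS, in the 2 kb upstream of the extended annotation of the gene, and its summit is nearest to the TSS of PELI3, a ubiquitin ligase gene. At the canonical TSS of MRPL11, the value was 18.9. The strongest peak lay beyond 1 kb of the TSS in 6 members in all. In 2 of them, MRPL11 and MRPL18, its summit was nearest to the TSS of another protein-coding gene (MRPL18 was singled out after its values were seen).

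The 5 members with the lowest values were also of both subunits. MRPS33, a protein without a bacterial counterpart, had a single peak with a fold enrichment of 3.33 over 415 bp, and its TSS lay outside the peak. MRPL22, the counterpart of bacterial L22 at the exit tunnel, had 3 peaks and a highest value of 4.91, with its TSS in a gap between them. MRPS18B had 7.64 in a peak with its summit nearest to the TSS of PPP1R10, and the peak over its own TSS had 7.08. The counterparts of bacterial S9 and S21, MRPS9 and MRPS21, had 8.90 and 9.12. The MRPS9 value is that of a peak 31318 bp downstream of the TSS, and within 1 kb of the TSS it was 8.88. When a −log10 q of 10 or more was required, 78 of the 79 members still had an H3K27ac peak, compared with 69.4% of all protein-coding genes.

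The mark sat close to the start sites. A peak covered the TSS itself in 74 of 79 members (93.7%), compared with 87.1% of all acetylated protein-coding promoters. The exceptions were MRPL22, MRPL30, MRPS10, MRPS27 and MRPS33, of which the first 4 had peaks on both sides of an uncovered TSS (MRPL30, MRPS10 and MRPS27 were singled out after their values were seen). The summit of the strongest peak lay at a median of 145 bp downstream of the TSS, and within 500 bp in 76 of 79 members (96.2%, compared with 85.3% of all acetylated promoters). It was downstream in 57 members (72.2%, compared with 76.0%). Peaks covered a median of 1310 of the 2001 bp around the TSS in members and 1319 in all acetylated promoters.

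**Figure D3:**
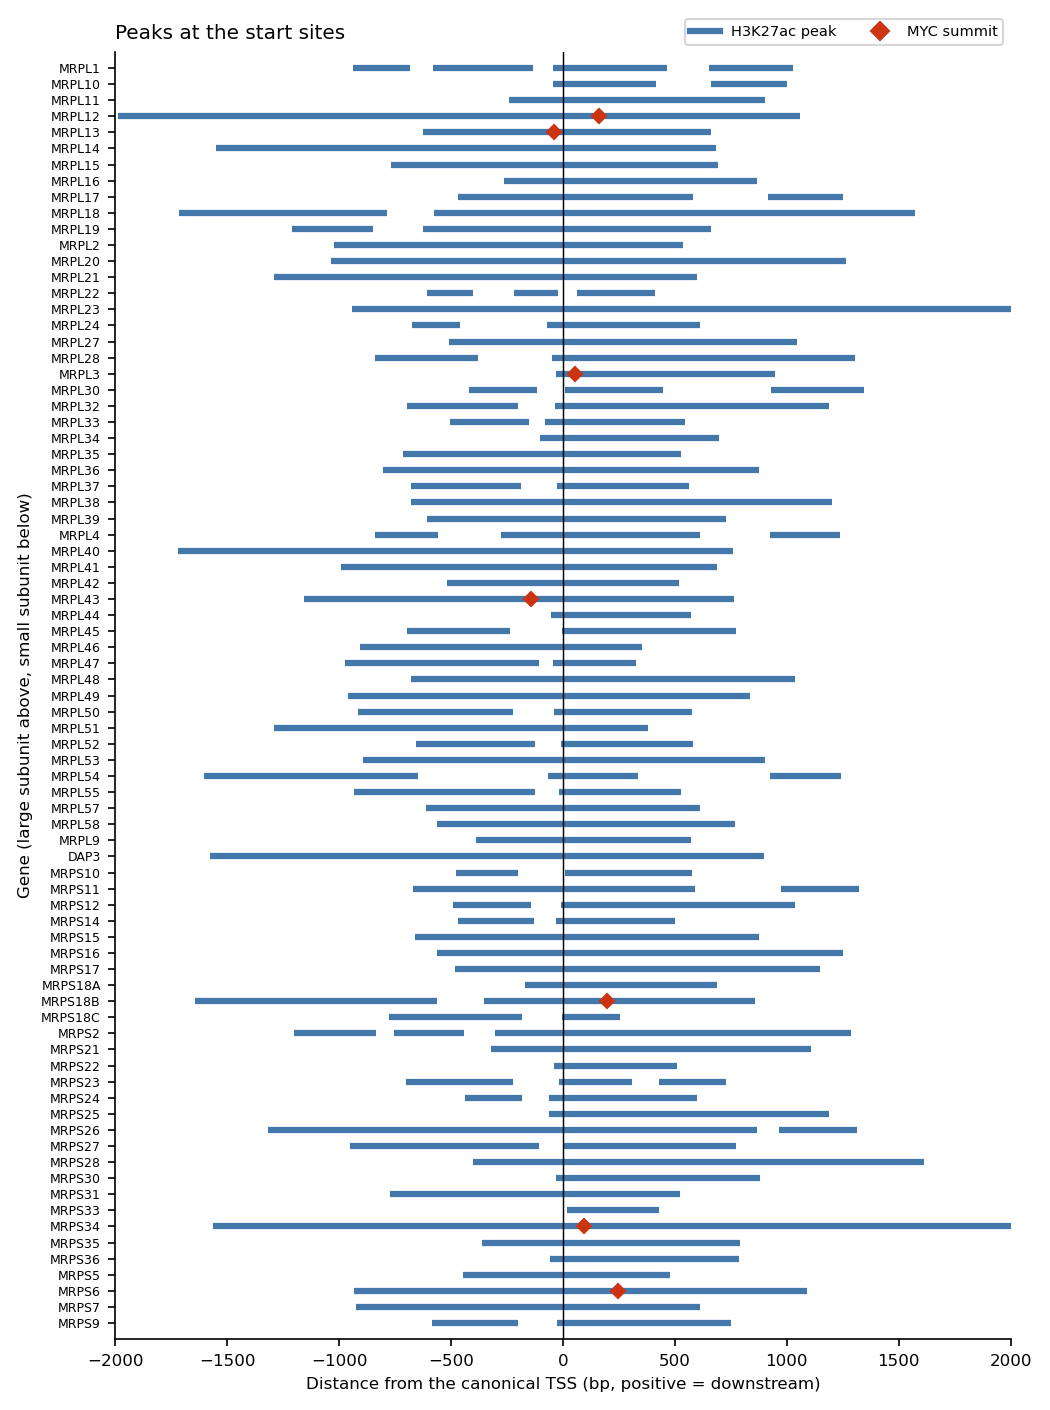
H3K27ac peaks (blue bars) within 1 kb of the canonical TSS and MYC peak summits (red diamonds) for the 79 members, against the distance from the TSS in bp, with each peak drawn to its full extent up to 2000 bp. In 74 members a peak covers the TSS, and the 7 MYC summits lie within 245 bp of it.

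H3K27ac away from the start sites was weaker. The members overlapped 259 distinct H3K27ac peaks in 261 pairs of gene and peak, since MRPL46 and MRPS11, which are divergent genes, share a promoter (named after their values were seen). Of these pairs, 118 were within 1 kb of the TSS with a median fold enrichment of 13.7 and a median width of 846.5 bp. The other 143 pairs had a median fold enrichment of 5.00 and a median width of 311 bp, and 106 of them had their summit in an intron of the canonical transcript. In 29 members all peaks were within 1 kb of the TSS, and 17 members had 1 peak.

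MYC peaks were found at few members. By the rule of gene body and 2 kb upstream, 8 of 79 members had a MYC peak (10.1%, interval 4.47 to 19.0%), compared with 6.36% of all protein-coding genes. Within 1 kb of the TSS there were 7 (8.86%, interval 3.64 to 17.4%), compared with 3.66% of all protein-coding genes. Of the protein-coding genes that had H3K27ac within 1 kb of the TSS, as all members did, 5.52% had a MYC peak there, and this share lies inside the interval of the members. The large subunit had 5 of 49 and the small subunit 3 of 30 by the gene-wide rule. MYC peaks were thus about as frequent in both subunits, and 71 members had none.

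These 8 members held 9 MYC peaks, of which MRPL3 held 2. Their median fold enrichment was 6.53, compared with 5.57 for the whole MYC list. An H3K27ac peak overlapped 7 of the 9, whereas 54.5% of the MYC list lay outside H3K27ac peaks. The 7 were the same as those within 1 kb of a TSS. This overlap is usual at promoters, since 728 of the 737 protein-coding genes with MYC within 1 kb of the TSS also had H3K27ac there. Acetylation at the members with MYC was not high among members, with a median strongest fold enrichment of 16.6, and 2 of the 7 (MRPS6 and MRPS34) exceeded the median of all acetylated promoters.

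Among the large subunit genes, MRPL3 stood apart. It encodes the counterpart of bacterial L3, a protein of the core of the large subunit. Its MYC peak at chr3:131221591-131221908 had a fold enrichment of 15.5 and a −log10 q of 37.3, which placed it at rank 9 of the 1723 MYC peaks. The summit lay 53 bp downstream of the TSS, in the untranslated part of exon 1. It was overlapped by H3K27ac at a fold enrichment of 16.0.

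The MRPL3 peak and that of MRPS18B, which encodes one of the members related to bacterial S18, were 2 of the 9 that held CACGTG. Over the MYC list, 22.6% of peaks held it. Both matches lay near the summit, 13 bp away in MRPL3 and 2 bp away in MRPS18B. They are shown because they lie inside a MYC peak, with CACGTG in capitals and 5′ to 3′ on the strand of the gene. Whether MYC binds through them was not tested. The MRPL3 sequence is the minus strand of chr3:131221732-131221761 in GRCh37 and the MRPS18B sequence is the plus strand of chr6:30585805-30585834.
MRPL3: ggctactgcgtcCACGTGgcggtggcgtgg
MRPS18B: tggagaccttccCACGTGtgtcttagctgt
The E-box of MRPL3 begins 66 bp downstream of the TSS and that of MRPS18B begins 200 bp downstream. The other 7 MYC peaks did not contain these letters.

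The remaining promoter peaks of the large subunit had lower fold enrichments than that of MRPL3, at ranks 421 (MRPL43), 423 (MRPL13) and 1095 (MRPL12) of the list. MRPL13, the counterpart of bacterial L13, had a fold enrichment of 7.12 and a summit 39 bp upstream of the TSS, and it is divergent with MTBP, which encodes an MDM2-binding protein. MRPL12, the counterpart of the bacterial stalk protein L7/L12, had 4.93 at chr17:79670507-79670678, with the summit 161 bp downstream in the coding part of exon 1. This summit was nearer to the annotated TSS of a readthrough gene that starts beside MRPL12 on the same strand, so that the peak cannot be assigned to either. MRPL43, a protein without a bacterial counterpart, had 7.14 at chr10:102747153-102747483. The MRPL43 summit was 145 bp upstream and nearer to the TSS of TWNK, the gene of the replicative helicase of mitochondrial DNA, which begins 46 bp away on the other strand. This peak likewise cannot be assigned to either gene, and both encode mitochondrial proteins.

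In the small subunit, MRPS6, the counterpart of bacterial S6, had the strongest MYC peak with a fold enrichment of 7.23 at chr21:35446049-35446335. Its summit was 245 bp downstream, in intron 1, and the TSS is shared with SLC5A3, a myo-inositol transporter gene. MRPS18B had 6.53 at chr6:30585756-30585914 with a summit 198 bp downstream in intron 1, and PPP1R10, a gene of a phosphatase regulatory subunit, starts 597 bp away in divergent orientation. MRPS34, a protein without a bacterial counterpart, had 3.17 at chr16:1822958-1823127 and a −log10 q of 2.16, at rank 1537. Its summit was 92 bp downstream in the coding part of exon 1, where EME2, an endonuclease subunit gene, overlaps. When a −log10 q of 10 or more was required, 3 of the 8 members and 423 of the 1283 protein-coding genes with a MYC peak were left. These were MRPL3, MRPL43 and MRPS6.

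The remaining 2 MYC peaks lay away from promoters and from H3K27ac. The second peak of MRPL3, at chr3:131181379-131181543 with a fold enrichment of 6.05, was in the untranslated part of exon 10, the last of the gene, 40383 bp from the TSS. The peak counted for MRPL24, the counterpart of bacterial L24, was at chr1:156712052-156712688 with 4.60. It was 1510 bp upstream of the TSS and inside HDGF, a growth factor gene. The 201 bp around each of these summits had 1 near-identical copy elsewhere in the genome (identity of 90% or more across 80% or more of the window), and the other 7 peaks had none. No MYC peak was listed at either copy.

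Promoter words were then counted from 250 bp before to 50 bp after the TSS, on both strands. CACGTG was found in 7 of 79 members (8.86%, interval 3.64 to 17.4%) and in 8.74% of all protein-coding promoters (10.3% of those with H3K27ac), so that its share was near the background. The members were MRPL15, MRPL22, MRPL36, MRPL37, MRPL45, MRPS18C and MRPS36. None of the 7 had a MYC peak, and none of the 7 members with a MYC peak at the TSS held the word in this window. The window ends before the E-boxes inside the MYC peaks of MRPL3 and MRPS18B, which begin 66 and 200 bp downstream. This lack of overlap therefore depends on the window. Within 500 bp on each side of the TSS the word was found in 15 members (19.0%, compared with 18.3%), which included 2 with a MYC peak there. Within 1 kb it was found in 24 members (30.4%, compared with 29.2% of all and 32.7% of acetylated promoters), which included 4 of the 7 with a MYC peak. The variant CACGCG was found in 19.0% of members, 15.2% of all promoters and 19.8% of those with H3K27ac.

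Some of the E-boxes without a listed MYC peak are shown for comparison with those of MRPL3 and MRPS18B, on the strand of each gene in GRCh37 with CACGTG in capitals. MRPL22 (plus strand, chr5:154320445-154320474), MRPL37 (plus, chr1:54665658-54665687), MRPS18C (plus, chr4:84377020-84377049) and MRPS36 (plus, chr5:68513449-68513478) are given.
MRPL22: ttttcggaagccCACGTGctttcggccttt
MRPL37: tgcgcttcacctCACGTGaggattttccag
MRPS18C: aatcataagcctCACGTGacctgccgcgta
MRPS36: aacaatagaacaCACGTGggtggatcctag
H3K27ac at the 7 members with CACGTG at the promoter covered most of the range seen over all members. Fold enrichment of the strongest peak within 1 kb of the TSS was 4.91 for MRPL22, 10.3 for MRPL45, a protein near the exit tunnel, and 15.5 for MRPS18C, a protein related to bacterial S18. The MRPS18C value belongs to a peak whose summit is nearest to the TSS of its divergent neighbour HELQ, a DNA helicase gene, and the peak over the MRPS18C TSS itself had 4.62. It was 21.2 for MRPS36, now known as a component of the oxoglutarate dehydrogenase complex, and 21.8 for MRPL15, the counterpart of bacterial L15. The highest were 30.2 for MRPL37 and 30.7 for MRPL36, the counterpart of bacterial L36.

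Words of other factors were more frequent in members than in all promoters. CCGGAAG, a core of ETS factor sites, was in 32 members (40.5%, interval 29.6 to 52.1%), compared with 14.0% of all protein-coding promoters and 19.3% of those with H3K27ac. AAGATGGC, a core of YY1 sites, was in 22 members (27.8%, interval 18.3 to 39.1%), compared with 4.03% and 5.61%. At least 1 of these words was in 46 members (58.2%, compared with 17.2% of all promoters and 23.6% of the acetylated ones), and both were in 8. By symbol, the words were found in both subunits. CCGGAAG was in 20 of 49 large and 12 of 30 small subunit genes, and AAGATGGC in 14 and 8. The ETS word was also frequent in related lists, in 7 of 12 mitochondrial translation factor genes, 11 of 25 assembly genes, 7 of 17 mitochondrial tRNA synthetase genes, 28 of 81 cytosolic ribosomal protein genes and 24 of 89 respiratory chain genes. The YY1 word was in 0, 2, 3, 12 and 16 genes of these lists. These words can overlap by the letters AAG, which occurred in 0 of the matches in members.

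Other words were nearer to the background. CGCATGCG, a core of NRF1 sites, was in 4 members (5.06%, compared with 2.86%). GGGCGG, the GC box bound by SP and KLF factors, was in 48 (60.8%, compared with 61.0% of all and 77.1% of acetylated promoters). The median GC content of the members' promoters was 59.8%, compared with 67.1% for acetylated promoters. A match is a description of the sequence only, and binding of these factors was not measured.

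**Figure D4:**
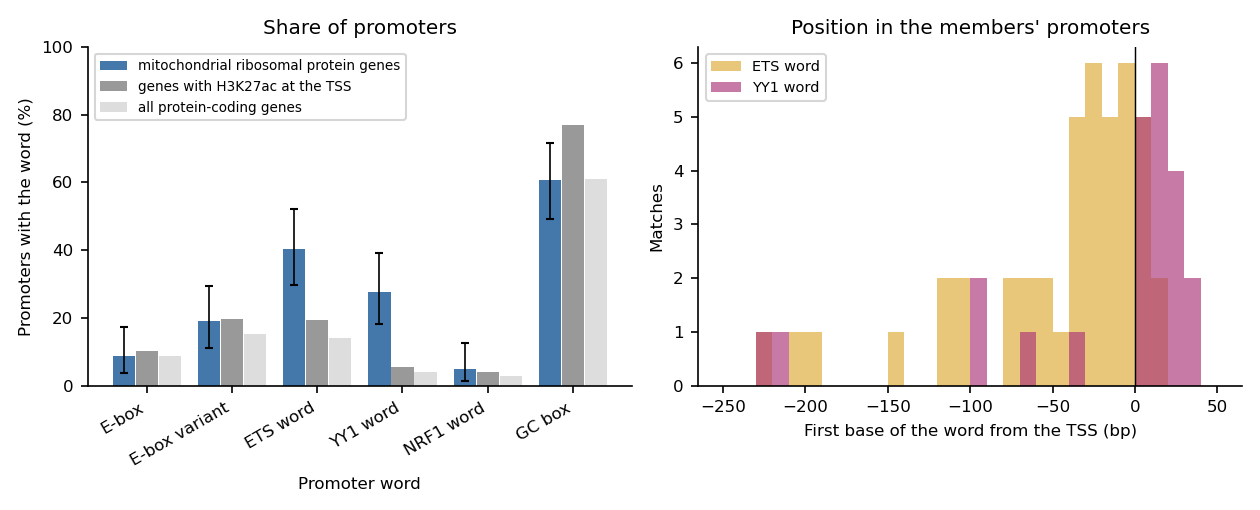
Left, percentage of promoters (250 bp before to 50 bp after the TSS) with each word for the 79 members, protein-coding genes with H3K27ac within 1 kb and all protein-coding genes, with exact 95% intervals for the members. Right, number of matches of the ETS and YY1 words in the members' promoters, by distance of the first base from the TSS in bins of 10 bp, where ETS matches gather before the TSS and YY1 matches just after it.

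Both words gathered near the TSS in members, as they did over all promoters. AAGATGGC was on the sense strand in 19 of 23 matches (82.6%, compared with 73.9% over all promoters), and its median first base was 13 bp downstream of the TSS. In 17 members it was on the sense strand downstream of the TSS, from 6 to 35 bp. In 14 of the 17 (82.4%), the ATG inside the word was the start codon of the canonical transcript, and over all protein-coding genes this held for 69.8% of 463 such matches. CCGGAAG was on the sense strand in 20 of 44 matches, and 30 of its 44 matches began within 50 bp of the TSS (68.2%, compared with 54.4%).

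Members named above illustrate the YY1 word at the start codon, with AAGATGGC in capitals. The sequences are the plus strand of GRCh37 at chr5:154320657-154320686 (MRPL22), chr17:36453136-36453165 (MRPL45) and chr6:30585629-30585658 (MRPS18B).
MRPL22: cgggagggcgaAAGATGGCggcggcagtac
MRPL45: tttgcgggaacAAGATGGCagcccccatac
MRPS18B: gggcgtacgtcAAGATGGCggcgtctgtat
The ETS word is shown in capitals for MYC-marked members, on the minus strand at chr3:131221830-131221858 (MRPL3) and chr10:102747255-102747283 (MRPL43).
MRPL3: tgtaaaacgcaCCGGAAGtgggtccggcg
MRPL43: tcgtcccggaaCCGGAAGcctcgaggttt
In MRPL3 the word begins 32 bp upstream of the TSS and in MRPL43 18 bp upstream. Members with AAGATGGC had a median fold enrichment of the strongest H3K27ac peak within 1 kb of the TSS of 13.7 and those without it 18.4. For CCGGAAG the medians were 15.2 and 19.0. The YY1 and ETS words were therefore not accompanied by higher acetylation. The medians with and without the word were 21.2 and 17.0 for CACGTG (7 members with it) and 22.1 and 16.7 for CACGCG. They were 17.0 and 16.6 for GGGCGG, and 13.0 and 18.4 for CGCATGCG. None of these differences was tested.

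Many members have a divergent neighbour. A protein-coding TSS on the opposite strand lay within 1 kb upstream in 27 of 79 members (34.2%), compared with 9.35% of all protein-coding genes and 13.8% of those with H3K27ac. In the other lists the share was 36.0% for assembly genes, 29.4% for mitochondrial tRNA synthetase genes, 28.1% for respiratory chain genes and 17.3% for cytosolic ribosomal protein genes, and 3 of 12 mitochondrial translation factor genes had such a neighbour. It was found in 19 of 49 large and 8 of 30 small subunit genes. The strongest H3K27ac summit was downstream of the member's TSS in 12 of these 27 members and in 45 of the 52 members without such a neighbour. Among all acetylated promoters the shares were likewise lower with a divergent neighbour (46.3%) than without (80.7%). MYC peaks within 1 kb were found in 3 of the 27 (11.1%) and 4 of the 52 (7.69%), compared with 9.07% of all protein-coding genes with a divergent neighbour and 3.10% of those without. Among acetylated promoters, as in all members, the latter shares were 9.41% and 4.90%.

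Some of these neighbours encode other parts of translation or respiration, and they were singled out after their values were seen. MRPL46 and MRPS11, of the large and small subunit, start 320 bp apart. MRPS12 and SARS2, the mitochondrial seryl-tRNA synthetase gene, start 181 bp apart. MRPL47 and NDUFB5, a gene of respiratory complex I, start 156 bp apart, and MRPL49 and FAU, which encodes a protein of the cytosolic ribosome, 187 bp apart. At MRPL46 with MRPS11 and at MRPL49 with FAU, 1 H3K27ac peak covered both start sites and cannot be assigned to either gene. At MRPS12 with SARS2 and at MRPL47 with NDUFB5, a separate H3K27ac peak covered each start site.

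Other genes of mitochondrial translation were similar in H3K27ac. The mark was within 1 kb of the TSS in all 4 subunit genes under other symbols (PTCD3, GADD45GIP1, CHCHD1 and AURKAIP1), all 12 translation factor genes, all 25 genes of ribosome assembly and rRNA modification and all 17 mitochondrial tRNA synthetase genes. MYC was within 1 kb in 0 of 4, 2 of 12, 4 of 25 and 1 of 17 of them. The genes were TUFM (elongation factor, 4.92) and MRRF (recycling factor, 5.11), then MRM1 (rRNA methyltransferase, 6.26), RBFA (4.54), MTG1 (GTPase, 4.29) and RPUSD4 (pseudouridine synthase, 3.44), and EARS2 (glutamyl-tRNA synthetase, 3.48). These fold enrichments lay within the range of the 7 members with MYC at the TSS, from 3.17 to 15.5, and the median over all protein-coding genes with MYC there was 5.73.

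The share of members with MYC was far from that of the cytosolic ribosomal protein genes and near to that of the nuclear respiratory chain genes. A MYC peak within 1 kb of the TSS was found in 63 of 81 cytosolic ribosomal protein genes (77.8%, interval 67.2 to 86.3%) and in 5 of 89 respiratory chain genes (5.62%, interval 1.85 to 12.6%). The interval of the members, 3.64 to 17.4%, does not overlap the first and overlaps the second. In H3K27ac the groups were alike, with medians of 17.0 for members, 17.6 for cytosolic ribosomal protein genes and 18.6 for respiratory chain genes. Where MYC was present, its median fold enrichment was 7.12 for members, 7.11 for cytosolic ribosomal protein genes and 4.39 for respiratory chain genes. The members were thus near the respiratory chain genes in the share with MYC and near the cytosolic ribosomal protein genes in this median, which rests on 7 members and 5 respiratory chain genes. The respiratory chain median of 4.39 is the value of NDUFA7. RPS28 of the cytosolic list has the same MYC (4.39) and H3K27ac (30.8) values, so that 1 peak may be counted in both lists.

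**Figure D5:**
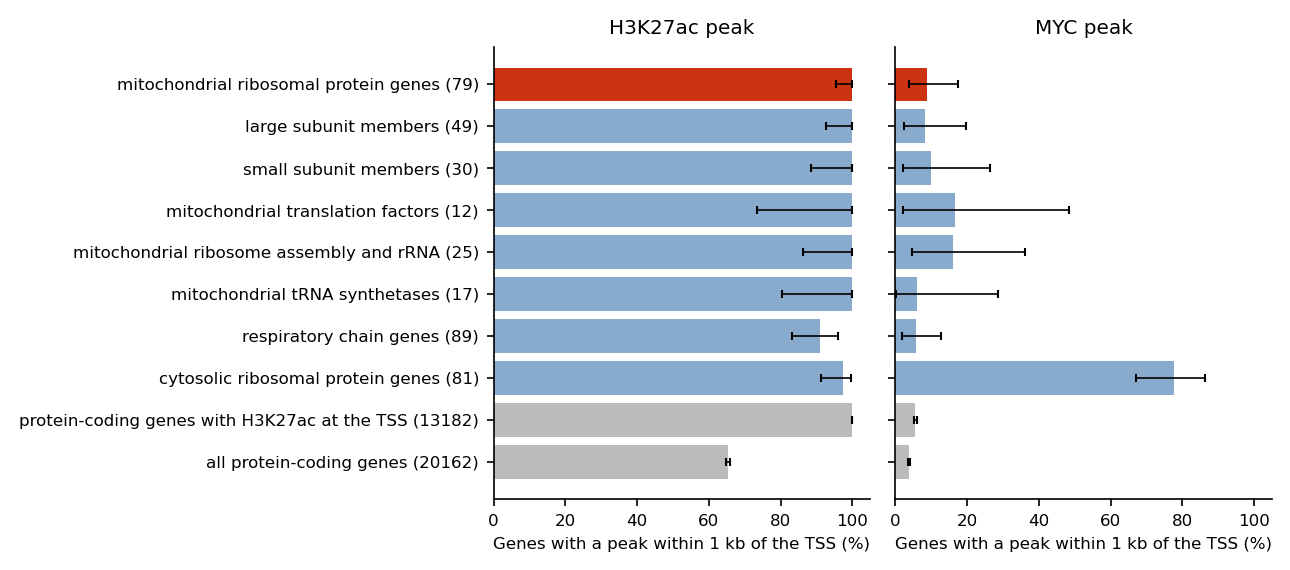
Percentage of genes with an H3K27ac peak (left) and a MYC peak (right) within 1 kb of the canonical TSS for each list, with the number of genes in parentheses and exact 95% intervals. H3K27ac is near 100% in each of the mitochondrial lists except the respiratory chain genes (91.0%), whereas the MYC share is 8.86% for the members and 77.8% for the cytosolic ribosomal protein genes.

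Pseudogenes of the members carried the marks about as rarely as other pseudogenes. The annotation holds 79 pseudogenes with MRPL or MRPS symbols, and 0 of them overlapped a MYC peak, compared with 1.47% of all annotated pseudogenes. H3K27ac overlapped 4, compared with 6.65% of all 15399 annotated pseudogenes. These were MRPS31P2, MRPS31P4 and MRPS31P5, which are copies of MRPS31, and MRPL42P1 (named after their values were seen).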

How the data were processed

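ChIP-seq of HAP1 cells was used from 4 samples with 1 library each. The authors aligned reads to hg19 with Bowtie2 (2.2.4) and called narrow peaks with MACS2 (2.1.1) at default settings. The fold enrichment, a ratio over the control at the summit, was computed by the authors with MACS2. Beside it, the deposited lists give a −log10 p and a −log10 q per peak, of which the latter set the stricter limit, and an integer score that was left aside. Read depth is not a field of these lists and was not used.

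The annotation was GENCODE release 44 (lifted to GRCh37). The TSS is that of the canonical transcript, or the 5′ end of the gene in the 281 genes without one. Calculations were made in Python (3.11.15) using pandas (2.3.3), pysam (0.24.0), numpy (2.4.6), scipy (1.17.1) and matplotlib (3.10.9). Sequences were read from the GRCh37 genome, indexed with samtools (1.23.1), and copies were searched with BLAST (2.17.0). Shares are given with exact Clopper-Pearson 95% intervals and no test was made. Cytosolic ribosomal protein and respiratory chain genes were selected by symbol.

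Members named by rule are those with a MYC peak, the 5 highest and 5 lowest by their strongest H3K27ac peak, and those with CACGTG at the promoter. Members without H3K27ac within 1 kb of the TSS were also to be named, but there were none. Neighbours that share a promoter with such a member and genes of other lists with a MYC peak within 1 kb are named as well. The blood markers and the subunit genes under other symbols are named as sets. The members and lists were chosen with earlier results of these data known. Overlaps and the member rule were tested on simulated data. The coverage tracks were not analysed here.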

Additional observations from a re-analysis of the deposited data

How the results depend on the processing

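Alternatives were other rules of overlap and distance, a stricter threshold, other sets of members and other windows. H3K27ac was found in 73 to 83 genes under each of them, and 73 was the count with peaks whose summit was nearest to the gene's own TSS (70.0% of all protein-coding genes). The median H3K27ac fold enrichment stayed between 16.9 and 18.6, and members with a divergent neighbour numbered 21 to 31. The MYC count was most affected by the threshold. With −log10 q of at least 10 it was 3 members and 423 of all protein-coding genes. Within 1 kb of the TSS it was 7 members and 737 of all genes, and with this window and threshold together, chosen after seeing the data, 3 and 255. The other MYC alternatives gave 6 to 9 members, where 6 was the count by the nearest TSS (4.61% of all genes) and 9 that with 5 kb upstream (6.69%). Members with CACGTG rose from 7 to 15 within 500 bp of the TSS, 24 within 1 kb and 20 with CACGCG added, where more sequence or more words are searched. These shares stayed near those of all promoters, at 19.0% against 18.3%, 30.4% against 29.2% and 25.3% against 22.2%. The canonical transcript in place of the gene, chosen after seeing the data, gave 79 members with H3K27ac and 8 with MYC, compared with 74.1% and 5.87% of all genes. With 1 library per antibody, peaks near the threshold, such as that of MRPS34, were not tested for repeatability.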
